A study of Mus musculus with 3 samples.

Results

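The peaks described here are the MEIS2 CUT&Tag peaks of embryonic mouse striatal tissue that lie at an end of a single protein-coding gene and were called again in a second library. A peak of MEIS2 replicate 1 on chromosomes 1 to 19 was a member if it shared at least 1 bp with a peak of MEIS2 replicate 2 and none with a peak of the library made without antibody, and if its summit lay within 1 kb of an end of exactly 1 protein-coding gene. There were 9383 such members among 44673 reproducible peaks (21.0%, 95% Wilson interval 20.6 to 21.4), which themselves came from 73347 replicate 1 peaks on these chromosomes. Of the other reproducible peaks, 1413 lay at the ends of 2 or more protein-coding genes, 2352 at ends of noncoding genes only and 31525 at no gene end.

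All 3 libraries came from the lateral ganglionic eminence (LGE) of wild-type CD1 embryos at day 14.5, with 100000 cells stated per assay and paired-end reads of 150 bp. The 2 MEIS2 libraries used a mouse polyclonal MEIS2 antibody, and the control used the same tissue, strain and age with no antibody. The caller kept 7618406, 6559629 and 6337375 tags in replicate 1, replicate 2 and the control, after the file headers gave redundant rates of 0.90, 0.92 and 0.91. The labelled tissue cannot be checked from peak lists. The labels do not say whether the replicates came from separate litters, and the control measures no off-target binding of an antibody. With 2 MEIS2 libraries against 1 control, no difference below was tested across samples. Intervals are 95% Wilson intervals that treat peaks, genes or windows as independent counts, and they cover counting error only.

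MEIS2 belongs to the TALE homeodomain family of transcription factors, and it is expressed in the LGE, where the projection neurons of the striatum are born. MEIS proteins recognise a short core that reads TGACAG, often next to sites for PBX or HOX partners. In CUT&Tag an antibody tethers the transposase Tn5, which cuts and tags DNA near the bound protein, and open chromatin such as active promoters can also be cut by Tn5 that is not held by the antibody. Many mammalian promoters lie in CpG islands, stretches rich in G, C and the dinucleotide CpG, and often hold GC boxes for factors of the SP and KLF families.

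Promoter sequence around the members is shown first, because the position of the peaks and the letters of promoters near them carry the main results. RefSeq promoter windows of GRCm38.p6 (mm10), which run from 250 bp before a transcript's start to 50 bp after it, were read on the gene's strand. Of the genes with a start member whose summit fell inside such a window and whose window held the MEIS core, the 8 with the highest lower fold enrichment of the 2 replicates are given as stretches of at most 100 bases, on the strand of the gene, with the MEIS core on either strand in capitals. The stretches lie at chr1:136415046-136415145 on the plus strand (Ddx59), chr15:83464715-83464814 on the minus strand (Pacsin2), chr10:75211911-75212010 on the plus strand (Specc1l), chr7:49759108-49759137 on the plus strand (Htatip2), chr4:120951882-120951951 on the minus strand (Zfp69), chr2:104712203-104712302 on the minus strand (Tcp11l1), chr6:17636760-17636857 on the plus strand (Capza2) and chr7:133776641-133776739 on the plus strand (Fank1).
Ddx59: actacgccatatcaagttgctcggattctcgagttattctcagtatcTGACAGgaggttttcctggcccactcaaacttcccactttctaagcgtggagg
Pacsin2: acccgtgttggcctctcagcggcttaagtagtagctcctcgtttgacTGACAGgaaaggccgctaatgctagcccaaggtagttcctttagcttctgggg
Specc1l: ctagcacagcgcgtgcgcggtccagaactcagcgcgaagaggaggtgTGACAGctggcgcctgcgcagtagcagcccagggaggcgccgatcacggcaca
Htatip2: gccgcgagcgcgCTGTCAcccggaagacgt
Zfp69: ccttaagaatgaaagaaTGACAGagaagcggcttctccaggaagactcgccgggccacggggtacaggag
Tcp11l1: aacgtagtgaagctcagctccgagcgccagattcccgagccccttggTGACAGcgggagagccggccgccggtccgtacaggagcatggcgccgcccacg
Capza2: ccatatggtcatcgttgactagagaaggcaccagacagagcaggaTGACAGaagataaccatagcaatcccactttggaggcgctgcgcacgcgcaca
Fank1: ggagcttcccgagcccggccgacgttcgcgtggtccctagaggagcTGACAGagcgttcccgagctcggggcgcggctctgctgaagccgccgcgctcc
At Ddx59, which encodes an RNA helicase, the member had a fold enrichment of 12.7 in replicate 1 and 10.9 in replicate 2. At Specc1l it had 13.6 and 10.7. In 7 of these 8 windows the core lay upstream of the window's transcript start and 123 to 254 bp from the summit. At Ddx59 and Pacsin2 it lay outside the replicate 1 peak, which spanned 136415132 to 136415676 and 83464216 to 83464738. At Htatip2 it lay 14 bp past that transcript's start and 11 bp from the summit, which itself lay 89 bp inside the gene.

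A second set of stretches covers the 100 bases before a transcript start of 5 striatal genes with a start member. These genes define the tissue or its projection neurons, which is why they were chosen. Dlx2, Isl1 and Gsx2 encode homeodomain factors of the LGE or its neurons, and Drd1 and Drd2 encode the dopamine receptors that mark the direct and indirect pathways. The stretches lie at chr2:71546755-71546854 (Dlx2, minus strand), chr13:116309689-116309788 (Isl1, minus strand), chr13:54055659-54055758 (Drd1, minus strand), chr9:49340303-49340402 (Drd2, plus strand) and chr5:75075501-75075600 (Gsx2, plus strand). Capitals mark the MEIS core, the GC box GGGCGG, the CCAAT box and the TATA box core TATAAA, on either strand.
Dlx2: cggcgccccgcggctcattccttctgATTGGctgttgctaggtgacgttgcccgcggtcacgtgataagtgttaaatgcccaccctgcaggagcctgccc
Isl1: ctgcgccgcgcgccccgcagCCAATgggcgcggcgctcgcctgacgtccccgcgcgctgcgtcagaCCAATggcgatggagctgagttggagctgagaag
Drd1: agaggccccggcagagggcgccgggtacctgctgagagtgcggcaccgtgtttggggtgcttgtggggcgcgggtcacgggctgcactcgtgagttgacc
Drd2: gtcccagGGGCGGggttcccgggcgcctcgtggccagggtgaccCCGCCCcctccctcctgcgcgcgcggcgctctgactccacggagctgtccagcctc
Gsx2: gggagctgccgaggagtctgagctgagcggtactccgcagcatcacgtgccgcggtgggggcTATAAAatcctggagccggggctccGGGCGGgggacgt
None of these 5 stretches holds the MEIS core. Each of the genes has a member peak, but the stretches do not cover whole peaks. At Isl1 the summit lay 224 bp before the start and at Gsx2 587 bp inside the gene, both outside the stretch. At Dlx2 a summit 720 bp inside the gene lay outside it, and another 45 bp before the start lay within it. At Drd1 the summit lay 12 bp before the start. At Drd2 it lay 33 bp inside the gene but within the stretch, which precedes a transcript start inside the gene.

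The members lay mainly at the start of genes. The gene table gives no strand, but the RefSeq promoter windows gave one for the genes of 7361 members. Of these, 6730 were nearest the start (91.4%, interval 90.8 to 92.0) and 631 nearest the far end (8.57%, 7.95 to 9.23), while 2022 members belong to genes with no window in the table. Among replicate 1 peaks at 1 gene end that were not called again in replicate 2, a smaller share was at the start, 65.6% of those with a known strand. Among the unrepeated replicate 2 peaks it was 56.5%. The control list held 47 peaks at 1 gene end among 8670 (0.542%), of which 19 were at the start and 18 at the far end.

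Most summits at starts were inside the gene rather than before it, with the start taken as the 5′ end of the gene record. A summit just before a transcript start farther inside thus counted as inside. The rule also left out summits near an end of a second protein-coding gene. Relative to the annotated start the median summit was 177.5 bp into the gene in replicate 1 (quartiles 46 and 365) and 186 bp in replicate 2 (50 and 374). The summit lay inside the gene for 82.2% of start members in replicate 1 and 82.5% in replicate 2. The fullest 100 bp bin was 100 to 199 bp inside the gene in both replicates, with 1260 and 1230 members. The first 300 bp of the gene held 50.7% and 49.9% of start members. Partner summits were close to each other, with a median distance of 79 bp over all members (quartiles 31 and 167).

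**Figure D1:**
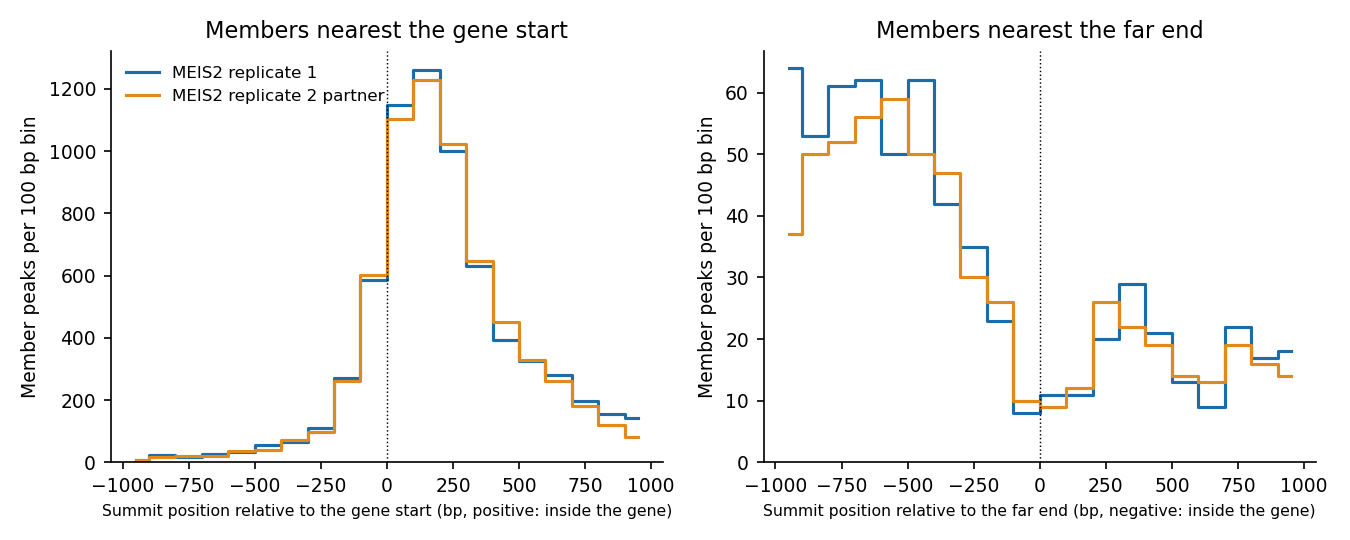
Number of member peaks per 100 bp bin of summit position (bp) relative to the gene start (left) and to the far end (right), for replicate 1 summits and the summits of their replicate 2 partners. The 6730 start members pile up just inside the gene, with medians of 177.5 and 186 bp, while the 631 far-end members are few in the bins next to the end itself, with 8 and 10 in the last 100 bp inside the gene and 11 and 9 in the first 100 bp past it.

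Far-end members were spread otherwise. Their median summit position relative to the far end was -463 bp in both replicates, where negative means inside the gene, and 72.9% and 72.7% were inside it. Of the 631, 62 lay within 1 kb of an annotated start of some gene (9.83%), and in 47 cases that start belonged to the same gene. Across all members of known or unknown strand, 81.4% had their summit inside the gene, 175 had both gene ends within 1 kb and 1375 (14.7%) also had an end of a noncoding gene within 1 kb.

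The members were wide peaks of middling height. Fold enrichment is the peak caller's ratio of the tag pileup at the summit to the pileup it expected locally, each plus 1. Its median over members was 7.62 in replicate 1 and 6.38 in replicate 2, against 7.06 and 6.38 at reproducible peaks away from gene ends. The median width was 594 bp in replicate 1 (quartiles 417 and 815, range 172 to 2576) and 480 bp in replicate 2, against 330 and 292 bp away from gene ends. Peaks at ends of 2 or more protein-coding genes were much like the members, with medians of 7.42 and 6.29 for fold enrichment and 588 and 468 bp for width. Against peaks away from gene ends, members thus had the same median fold enrichment in replicate 2 and a larger median width in both replicates.

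Start and far-end members differed in each of these values in both replicates. Start members had a median fold enrichment of 7.75 and 6.55, a pileup of 19 and 12 tags and a width of 618 and 506 bp. Far-end members had 5.88 and 5.11, 15 and 10 tags, and 357 and 293 bp. Leaving out far-end members near any annotated start, the other 569 had medians of 5.88 and 5.10. In width, far-end members were close to the peaks away from gene ends, whose quartiles they overlapped.

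**Figure D2:**
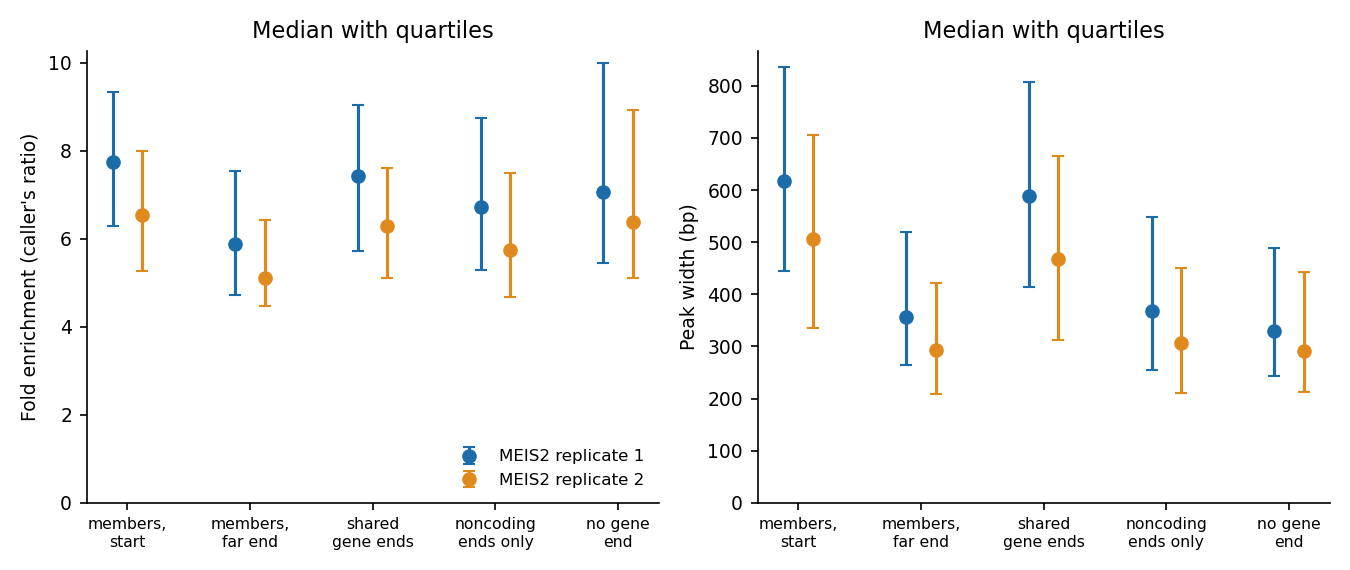
Median fold enrichment (left, the caller's ratio) and median peak width in bp (right) of 5 classes of reproducible peaks in MEIS2 replicate 1 and in the replicate 2 partners, with bars from the lower to the upper quartile. Start members stand at 618 and 506 bp, far-end members at 357 and 293 bp and peaks away from gene ends at 330 and 292 bp.

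The far-end share also went with peak height. In the lowest decile of member fold enrichment 23.3% of members of known strand were at the far end in replicate 1 and 20.2% in replicate 2. The share was lowest in the eighth decile, at 2.72% and 3.55%. It was 5.18% and 4.58% in the highest decile. The counting intervals of the eighth and highest deciles overlapped in both replicates.

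**Figure D3:**
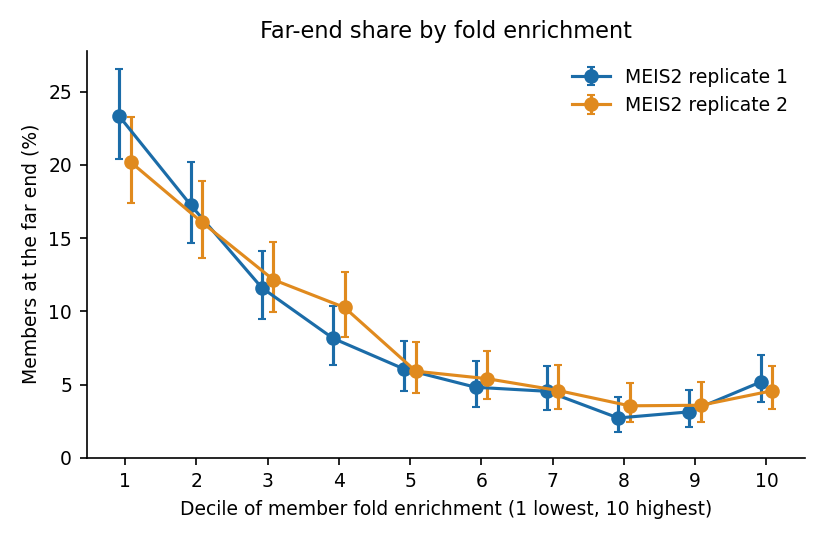
Share of members of known strand at the far end of the gene (%), by decile of fold enrichment within each MEIS2 replicate, with 95% Wilson intervals. The share goes from 23.3% and 20.2% in the lowest decile to 2.72% and 3.55% in the eighth.

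The very highest members did not follow the set as a whole. Of the 10 with the highest lower fold enrichment, 6 were at a far end, 2 at a start and 2 at genes without a strand. The first was at Elk3, which encodes an ETS-domain factor, with its summit 331 bp past the far end. It had a fold enrichment of 22.3 and 25.3 and a pileup of 76 and 94 tags. The far-end member at Adgb, which encodes androglobin, had 16.5 and 26.6, and that at Clca3b, of the calcium-activated chloride channel regulator family, had 20.8 and 18.6. Gm21814, Gm52806 and Plekhb2 were the other far-end genes, with 17.6 and 21.4, 24.7 and 16.6, and 16.3 and 16.0. The start members were at Cwc22, a spliceosome factor, with 15.7 and 17.1, and at Rsph3a, a radial spoke protein, with 16.5 and 15.8. Prelid2 (19.1 and 18.5) and Zfp978 (18.5 and 16.1) had no strand. All of these values are well above the member medians of 7.62 and 6.38 in both libraries.

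The members with the most tags were only partly those of the highest fold enrichment. Elk3 and Cwc22 were among the 10 highest by both measures. The first 5 by the lower pileup were all at predicted genes of a cluster on chromosome 6, from 47663011 to 47680524 in mm10, namely Gm40367, Gm40365, Gm36327 with a pair of members, and Gm40364. At Gm36327 a member at the far end had pileups of 107 and 96 tags, and a member at the start had 102 and 91. Their fold enrichments were only 2.66 and 2.54, and 2.69 and 2.61, far below the member medians. By the definition of the ratio, the expected pileup around them was high too. Predicted genes of such a cluster may share sequence, so the position of their tags is uncertain. Outside this cluster, the member at the start of Tmem267 had pileups of 81 and 78 tags with fold enrichments of 10.0 and 10.99, and that of Cwc22 had 90 and 78 tags.

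The 5 widest members in replicate 1 included regulators of transcription and chromatin, and 4 of them overlapped more than 1 replicate 2 peak. The replicate 2 width is that of the partner of highest fold enrichment alone. The widest, at the start of Klf13, a zinc finger factor of the KLF family, measured 2576 and 2413 bp. At Phf13, a reader of histone methylation, the widths were 2089 and 1246 bp, with 2 partners, and at Nsd1, a histone methyltransferase, 2303 and 1106 bp, with 3. At Ptma, which encodes prothymosin alpha, they were 2439 and 454 bp, with 4 partners, and at the kinase gene Dyrk1a 2136 and 285 bp, with 2. These 5 members had fold enrichments between 4.16 and 6.10, all below the member medians. Over all members, Spearman's rho between width and fold enrichment was 0.250 in replicate 1 and 0.476 in replicate 2. A width of more than 1 kb was reached by 1097 members in replicate 1 and 421 in both replicates.

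The replicates ordered the members alike but not on the same scale. Across the 9383 members, Spearman's rho between the replicates was 0.633 for fold enrichment and 0.733 for width. It was 0.614 for fold enrichment among start members and 0.607 among far-end members. The points are peaks of the same 2 libraries and share local sequence and mappability, so these are descriptions. Fold enrichment was higher in replicate 1 for 72.7% of members and the peak was wider there for 77.4%. Replicate 1 also had more kept tags, and the part of depth in this was not tested.

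Most members had a single partner. Of the 9383, 8981 overlapped 1 replicate 2 peak, 393 overlapped 2 and 9 overlapped 3 or more. The partner of highest fold enrichment had its summit within 1 kb of the same gene for 9172 members (97.8%). Because 9287 different partners stood for 9383 members, a few members shared one.

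The share of peaks called again in the other replicate was larger at starts than at far ends or away from gene ends. Of the replicate 1 peaks at 1 gene end without a control peak, 80.5% overlapped a replicate 2 peak, and 91.5% did in the other direction. The share was 85.2% and 94.6% at starts, 50.7% and 67.8% at far ends, and 60.9% and 57.1% away from gene ends. Starts also had the larger share among peaks of middling height. With the quartiles of fold enrichment over all peaks of the library as limits, 85.0% and 95.1% of start peaks, 59.2% and 70.6% of far-end peaks and 57.8% and 51.4% of peaks away from gene ends between the lower and upper quartile were called again. Below the lower quartile the shares were 51.2% and 83.3% for start peaks, 32.0% and 58.2% for far-end peaks, and 35.2% and 39.9% away from gene ends. Start peaks were wider than the others, and a wider peak has more room to overlap, so the part of width in these shares was not tested.

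The control contributed little at gene ends. Of replicate 1 peaks at 1 gene end, 26 of 11685 overlapped a control peak (0.223%), and 32 of 10538 did in replicate 2 (0.304%). Away from gene ends the shares were 7.30% and 8.28%. The control list was shorter than either MEIS2 list, at 8670 peaks on these chromosomes against 73347 and 76565. A peak list gives no value where no peak was called, so the control signal at the members was not analysed here.

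The 1 kb limit cut through a thin tail of peaks. The 148 members with a summit in the last 50 bp inside the limit had median fold enrichments of 5.93 and 5.63 and a median width of 544.5 bp in replicate 1. The 134 peaks in the first 50 bp outside it had 5.96 and 5.35, and 450.5 bp.

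Counted by gene, 8711 of the 20665 protein-coding genes on chromosomes 1 to 19 had a member (42.2%). At the start it was 6479 of 16457 genes of known strand (39.4%), and at the far end 617 (3.75%). Control peaks lay at the end of that gene alone for 46 genes (0.223%), 18 of which also had a member. A further 2402 genes had only a reproducible peak shared with another gene's end, so that 53.8% of genes had a reproducible peak of either kind. Genes with a start member were long, with a median length of 27341 bp, against 12521 bp for genes without a member. Genes with a far-end member had a median length of 11962 bp. By chromosome, the share of genes with a member ran from 30.2% on chromosome 7 to 50.4% on chromosome 12.

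Most of these genes had a single member. There were 8070 genes with 1, 611 with 2, 29 with 3 and 1 with 4, and 255 genes had a member at both the start and the far end. Of 346 neighbouring pairs of members at the same end, 94 (27.2%) overlapped 1 and the same replicate 2 peak, so that replicate 2 had a single peak where replicate 1 had a pair. The median distance between the summits of such neighbours was 723 bp. The gene with 4 members was Vax2, a homeobox gene of the ventral forebrain and eye. Near one end of Vax2 the fold enrichments were 5.17 and 6.14, and 4.82 and 4.36. Near the other end they were 7.87 and 5.74, and 7.96 and 3.71. Among the 29 genes with 3 members, Barhl2, a homeobox gene of neural development, had 2 at the start and 1 at the far end, with values between 4.31 and 5.41. Arhgdia, an inhibitor of small GTPases, was arranged in the same way. At Bicdl1 all 3 replicate 1 peaks overlapped a single replicate 2 peak of 1645 bp.

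Among regulators of the LGE and striatum, 19 of 27 genes had a member (70.4%, interval 51.5 to 84.1), against 42.2% of all genes. The list holds factors that pattern the LGE (Gsx1, Gsx2, Dlx genes) and factors of its postmitotic neurons (Isl1, Ebf1, Foxp1, Bcl11b, Ikzf1). The lists here were drawn up with results of these data known, so the shares are descriptions. At Foxp2, a forkhead factor of striatal neurons, the member had fold enrichments of 8.03 and 7.23. Tcf12, the partner of proneural bHLH factors, had 9.55 and 7.20. Their median over the 24 members of this list was 6.24 and 5.19, below the medians of 7.62 and 6.38 for all members. When the distance limit was lowered to 500 bp the list's share was 40.7%, against 36.6% of all genes.

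The Dlx genes differed among themselves. Dlx2 had 2 members at its start. The one 720 bp inside the gene had fold enrichments of 5.11 and 3.71 and pileups of 28 and 13 tags. The one 45 bp before the start had 3.64 and 3.16, with 17 and 10 tags. Dlx5 had 6.45 and 5.06, and Dlx6, its neighbour on chromosome 6, had 7.1 and 7.28. The values at Dlx2 and Dlx5 were below the member medians in both replicates, and that at Dlx6 was above in replicate 2. Dlx1 had no reproducible peak at an end.

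At Gsx2 the summit lay 587 bp inside the gene, with fold enrichments of 8.35 and 5.32 and widths of 810 and 169 bp. At Gsx1 it lay 522 bp inside, with 5.87 and 4.33. The member at Isl1 had 7.56 and 6.98, 224 bp before the start. Meis1, a paralog of Meis2, had a member 219 bp before the start, with 7.46 and 5.87. Meis2 itself, Six3 and Zfp503 had no reproducible peak within 1 kb of an end, nor did Etv1, Helt, Rarb and Sp9. None of these genes had only a shared peak.

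Several genes of this list had more than 1 member. Foxp4 had 2 at its start, with 6.38 and 5.45 for the one 34 bp inside and 3.56 and 3.30 for the one 639 bp before. Another lay at the far end, with 4.39 and 3.17, the sole far-end member of the list. Foxp1 had 2 at its start, with 4.60 and 4.86, and 4.56 and 4.52. Tle4, a Groucho corepressor, had 2, with 8.60 and 6.36 before the start and 5.97 and 5.33 inside.

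Among markers of striatal projection neurons, 15 of 26 had a member (57.7%, interval 38.9 to 74.5), against 42.2% of all genes. The median signed offset of their start members was 11.5 bp over 12 peaks, against 177.5 bp for all start members. Summits before and inside the gene offset each other in this median. The offsets ran from -881 bp at Rasd2, where negative means before the start, to 790 bp at Arpp21. Drd1 had 10.0 and 6.19, with 19 and 9 tags, and Drd2 7.39 and 6.95, with 13 and 10 tags. Arpp21, which encodes a cAMP-regulated phosphoprotein of spiny neurons, had 11.4 and 8.21. Rgs9, a regulator of G protein signalling, had 10.6 and 6.38, with its summit at the start itself. Sfxn1, a mitochondrial serine transporter, had 10.4 and 7.65. Among neuropeptide genes, Tac1 had 6.47 and 7.01, and the 2 members at Penk had 7.26 and 5.68, and 4.62 and 7.67. Gad1, Gad2 and Slc32a1, which make and load GABA, had none, and neither had Pdyn. With 50% reciprocal overlap the share of this list was 34.6%, against 36.5% of all genes.

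Notch pathway genes had a member in 13 of 19 cases (68.4%, interval 46.0 to 84.6), against 42.2% of all genes. By role, the receptor genes Notch1, Notch2 and Notch3 had 6.06 and 8.15, 9.10 and 8.62, and 5.38 and 5.43. Among ligands, Dll1 had 3.59 and 4.08, Jag2 had 4.10 and 4.10, and Jag1 had 2 members, with 5.52 and 4.89, and 4.54 and 5.56. Dll3 and Dll4 had none, nor had the receptor gene Notch4 or Rbpj. The coactivator gene Maml1 had the highest lower value of the list, 12.1 and 10.1. Of the target genes, Hey2 had 8.93 and 9.52, Heyl 10.8 and 8.93, and Hes5 3.81 and 4.25. Hes1 had no reproducible peak at an end, and Hey1 only a shared one. Lfng had 3.58 and 3.28, and Numbl 6.62 and 6.63. Numb, an inhibitor of Notch, had 10.3 and 8.53. The members at the ligand genes were below the member medians in both replicates, and those at Maml1, Notch2, Hey2, Heyl and Numb were above in both. Over the 14 members of the list the medians were 5.79 and 6.09, below the 7.62 and 6.38 of all members.

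Radial glia and progenitor genes had a member in 10 of 20 cases (50.0%, interval 29.9 to 70.1), against 42.2% of all genes. The count fell to 7 of 20 with 50% reciprocal overlap and to 6 of 20 with the −log10 q minimum at 5. Both shares were below those of all genes under the same rules, 36.5% and 32.5%. In the other alternatives the list's share stayed above that of all genes. Ptprz1, a receptor phosphatase of radial glia, had 11.9 and 14.0, the highest lower value of the list. Gli3, a repressor in Hedgehog signalling, had 8.08 and 6.75, and the intermediate filament genes Nes and Vim had 6.77 and 5.73, and 7.1 and 4.54. Sox2 had 5.86 and 4.76. Ccnd1, Ccnd2, Fabp7, Hes1 and Pax6 had no reproducible peak at an end.

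Genes of neighbouring territories had members as well. Of genes of the medial ganglionic eminence (MGE) and interneurons, 10 of 15 had one (66.7%, interval 41.7 to 84.8), and of dorsal cortical genes 8 of 16 (50.0%, 28.0 to 72.0). Over all genes it was 42.2%. Satb1, a chromatin organiser of interneurons, had 10.1 and 9.30 at a member 128 bp inside the gene, and 3.89 and 4.04 at another 781 bp inside. Lhx2, a cortical selector gene, had 9.06 and 11.3. The start members of the MGE list lay a median 525.5 bp inside the gene, over 8 peaks. Among TALE homeobox genes 10 of 18 had a member (55.6%, 33.7 to 75.4), the highest being Pbx4 with 12.4 and 8.93. The intervals of these lists overlap that of the LGE regulators. With the limit at 500 bp the MGE count was 6 of 15 genes and the dorsal cortical count 6 of 16, against 36.6% of all genes. At 2.5 kb they were 14 of 15 and 13 of 16, against 45.9%. With 50% reciprocal overlap they were 10 of 15 and 5 of 16, against 36.5% of all genes.

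Genes used in most cells did not share one level, and all genes stood at 42.2%. Chromatin regulators had a member in 27 of 34 cases (79.4%, interval 63.2 to 89.7), the highest share of the 23 lists under the rule used here, and wide members, with medians of 896 and 776.5 bp. At 2.5 kb their 85.3% was below the 93.3% of the MGE list and the 88.9% of LGE regulators. In replicate 1 alone their 79.4% was below the 85.2% of LGE regulators and the MGE list's 12 of 15, and in replicate 2 alone their 82.4% was below the 84.2% of Notch pathway genes. Their example of highest lower value was Tet2, an enzyme that oxidises methylated cytosine, with 11.2 and 10.5. Chd8, a chromatin remodeller, had 9.84 and 9.48, and Crebbp, a histone acetyltransferase, 9.36 and 9.30. Cytosolic ribosomal protein genes had a member in 46 of 82 cases (56.1%, 45.3 to 66.3), none of them at a far end among genes of known strand. Cell cycle genes had one in 20 of 34 (58.8%, 42.2 to 73.6), with 8.45 and 7.56 at E2f1 and 7.09 and 7.77 at Ccne1.

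For some of these lists the rule of a single gene end removed many genes. Over all genes, 42.2% had a member and 2402 of 20665 had only a shared peak. Mitochondrial ribosomal proteins had a member in 29 of 78 cases (37.2%), with 26 more having only a shared peak. For the respiratory chain it was 35 of 95 (36.8%), with 32 more. For histone genes it was 27 of 77 (35.1%), with 38 more. Most histone genes lie in tight clusters. At 500 bp the histone share was 57.1%, against 36.6% of all genes. The mitochondrial ribosomal and respiratory shares were then 39.7% and 40.0%. Aminoacyl-tRNA synthetases had 12 of 35 (34.3%), with 8 more. With the −log10 q minimum at 5, the respiratory chain had 20 of 95 and the synthetases 7 of 35, against 32.5% of all genes.

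Genes of tissues other than the LGE gave a mixed picture beside the 42.2% of all genes. Olfactory receptors had a member in 24 of 1104 cases (2.17%, interval 1.47 to 3.21), with 11 genes at the start and 11 at the far end, and 3 genes of the list had a control peak. Their share was 1.27% with a −log10 q minimum of 5, 4.08% at 2.5 kb and 3.99% in replicate 2 alone. Vomeronasal receptors had 4 of 352 (1.14%, 0.443 to 2.88), and 16 at 2.5 kb. Vessel and microglia markers had 3 of 15 (interval 7.05% to 45.2%), namely the endothelial genes Cldn5, Esam and Kdr, with 8.88 and 5.07, 6.32 and 5.44, and 7.19 and 5.00. Yet Hox genes, which are not known for expression in the forebrain, had 23 of 39 (59.0%, 43.4 to 72.9), and keratins 25 of 53 (47.2%, 34.4 to 60.3). Hoxd1 had 9.25 and 7.73 and Krt72 12.5 and 9.43, both among the strongest of their lists. The list medians were 6.70 and 4.91 for Hox genes and 6.54 and 5.11 for keratins. Both were below the 7.62 and 6.38 of all members. Raising the −log10 q minimum to 5 left 23.1% of Hox genes, 18.9% of keratins and 1 vessel marker, against 32.5% of all genes.

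In all, 16 of the 23 lists lay above the 42.2% of all genes, lists of other tissues among them, so a member at a gene was common in most of the lists drawn up here. Potassium channels had 50 of 92 (54.3%, 44.2 to 64.1), proteasome subunits 21 of 38 (55.3%, 39.7 to 69.9), oligodendrocyte lineage genes 6 of 11 (54.5%, 28.0 to 78.7, and 3 of 11 with the −log10 q minimum of 5) and zinc finger genes named Zfp 172 of 386 (44.6%, 39.7 to 49.5).

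**Figure D4:**
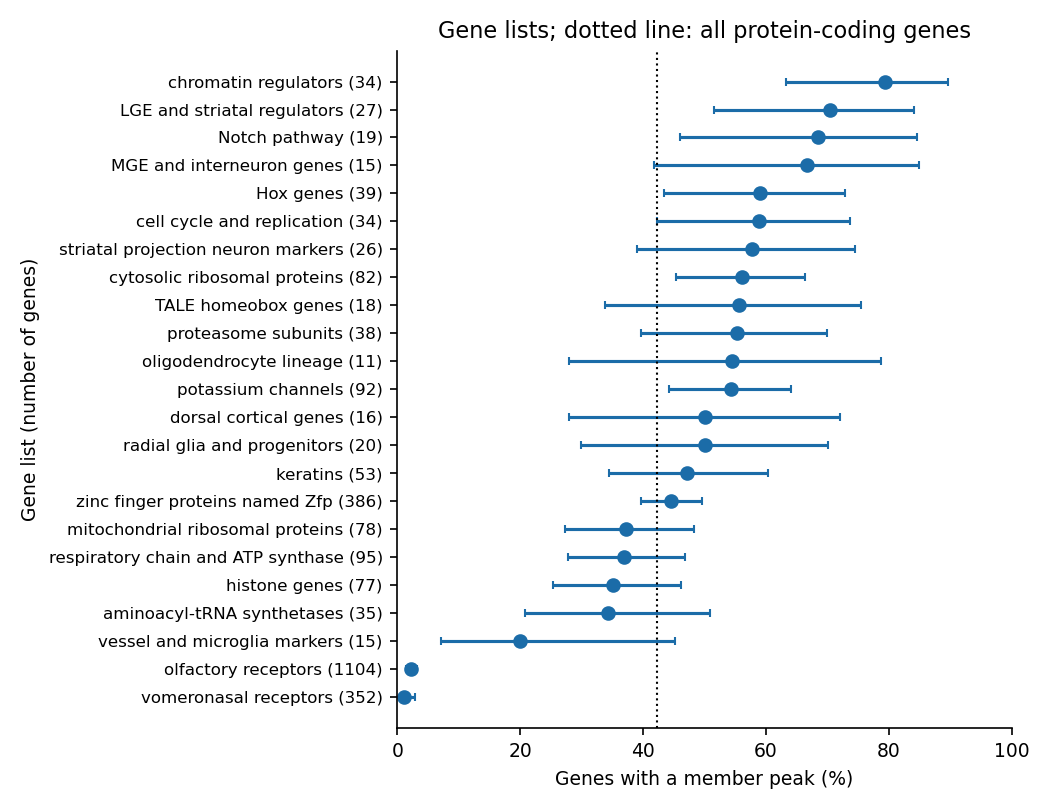
Share of the genes of each list with a member peak (%), with 95% Wilson intervals and the number of genes in brackets, and the 42.2% of all protein-coding genes as a dotted line. Under this rule chromatin regulators are highest at 79.4%, olfactory receptors (2.17%) and vomeronasal receptors (1.14%) are lowest, and 16 of 23 lists lie above the line.

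The start members lay at CpG-rich promoters. CpG content was taken as the observed over expected number of CpG dinucleotides in each of 20085 RefSeq promoter windows of 300 bp, and a window was called CpG-rich at a ratio of at least 0.6. Over all windows the median ratio was 0.586, the median GC content 57.0% and the CpG-rich share 48.9%. Of the 7010 windows with a start member within 1 kb, 78.0% were CpG-rich (interval 77.0 to 79.0), with a median ratio of 0.787. Of the 2131 windows that held the summit itself, 88.4% were (86.9 to 89.7), with a median GC content of 68.0%. Of the 13075 windows with no start member within 1 kb, 33.4% were, and their median ratio was 0.347. These include windows of genes with another reproducible peak at an end, such as one shared with another gene. Of the 9089 windows of genes without any reproducible peak at an end, 22.8% were CpG-rich, with a median ratio of 0.272.

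Read the other way, 55.6% of CpG-rich windows had a start member within 1 kb and 15.03% of CpG-poor ones. The share climbed from 3.85% below a ratio of 0.2 to 12.9%, 36.8% and 53.7% in the next bins of 0.2, and was then nearly level at 56.8% and 57.4%. Among windows that held a summit, the CpG-rich share was 79.1% in the lowest tercile of fold enrichment, 90.9% in the middle one and 95.8% in the highest. A GC-rich template can alter amplification and mapping, and its part in these shares was not tested.

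Members at CpG-rich starts had the larger median width and fold enrichment and the larger share called again. The 5136 start members whose nearest own window was CpG-rich had median fold enrichments of 7.99 and 6.83 and widths of 661.5 and 548 bp. The 1353 at CpG-poor starts had 7.11 and 5.74, and 485 and 361 bp. Their median summits lay 166 and 174 bp inside the gene at CpG-rich starts and 239 and 235 bp at CpG-poor starts. Of replicate 1 start peaks, 90.5% were called again at CpG-rich starts (interval 89.7 to 91.2) and 71.4% at CpG-poor starts (69.4 to 73.4). In the other direction it was 97.3% and 87.3%.

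The MEIS core was in a smaller share of the members' promoters than of all promoters. TGACAG on either strand was in 18.4% of all windows (interval 17.9 to 18.96), in 16.1% of those with a start member within 1 kb (15.3 to 17.0) and in 14.6% of those that held the summit (13.2 to 16.2). Within CpG-rich windows the share was 14.7% with a start member and 14.3% without, and within CpG-poor windows 21.2% and 22.3%. Windows without a start member can belong to genes with another reproducible peak at an end. In the 9089 windows of genes with no such peak, not split by CpG class, the core was in 20.6%. In windows that held a summit, the core occurred 0.466 times per kb within 50 bp of the summit and 0.583 times farther away. The composite TGATTGAC, which can be read by PBX with HOX or MEIS, was in 0.792% of all windows, 0.713% of those with a start member and 0.845% of those that held the summit. The homeodomain core TAATTA was in 4.48% of all windows and 0.798% of those that held the summit. These are matches of letters in a window of 300 bp and say nothing of sites outside it.

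The GC box GGGCGG was in 47.0% of all windows, 72.1% of those with a start member and 84.5% of those that held the summit. At equal CpG class it was still more frequent with a start member, at 79.2% against 68.2% in CpG-rich windows and 47.0% against 16.3% in CpG-poor windows. It occurred 9.86 times per kb within 50 bp of the summit and 6.69 times farther away. For this and the other motifs, near and farther bases were not matched for distance from the start or GC content. The ETS core CCGGAAG was in 11.9% of all windows and 15.9% of those that held the summit, but within CpG-rich windows in 16.9% with a start member and 23.7% without. For the GC box and the ETS core too, windows without a start member can belong to genes with another reproducible peak at an end. The E-box CACGTG was in 7.89% and 10.9%, and the NRF1 motif GCGCATGC in 3.55% and 5.87%, of all windows and of those that held the summit. Within CpG-rich windows these shares were close to each other, at 11.4% and 11.2% for the E-box and 6.38% and 6.43% for the NRF1 motif.

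The TATA box core TATAAA went the other way, with 12.7% of all windows and 3.94% of those that held the summit. Promoters in CpG islands mostly lack this box. The CCAAT box CCAAT was in 38.1% and 33.2%, the AP-1 site TGACTCA in 4.70% and 3.19%, the YY1 core AAGATGGC in 3.06% and 3.00%, and the cAMP response element TGACGTCA in 2.3% and 2.86%. Within CpG-rich windows the AP-1 site was in 2.48% of all and 2.87% of those that held the summit, the YY1 core in 4.85% and 3.40%, and the cAMP response element in 3.76% and 3.03%, so the order turned for the AP-1 site and the cAMP response element. Near summits the cAMP response element was denser, at 0.177 per kb within 50 bp against 0.0671 farther away, from 34 and 29 copies. It shares the letters TGAC with the MEIS core and cannot contain it. The 12 motifs were each searched on both strands of the window, and shared letters such as those of the GC box and CpG dinucleotides make these shares dependent on each other.

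**Figure D5:**
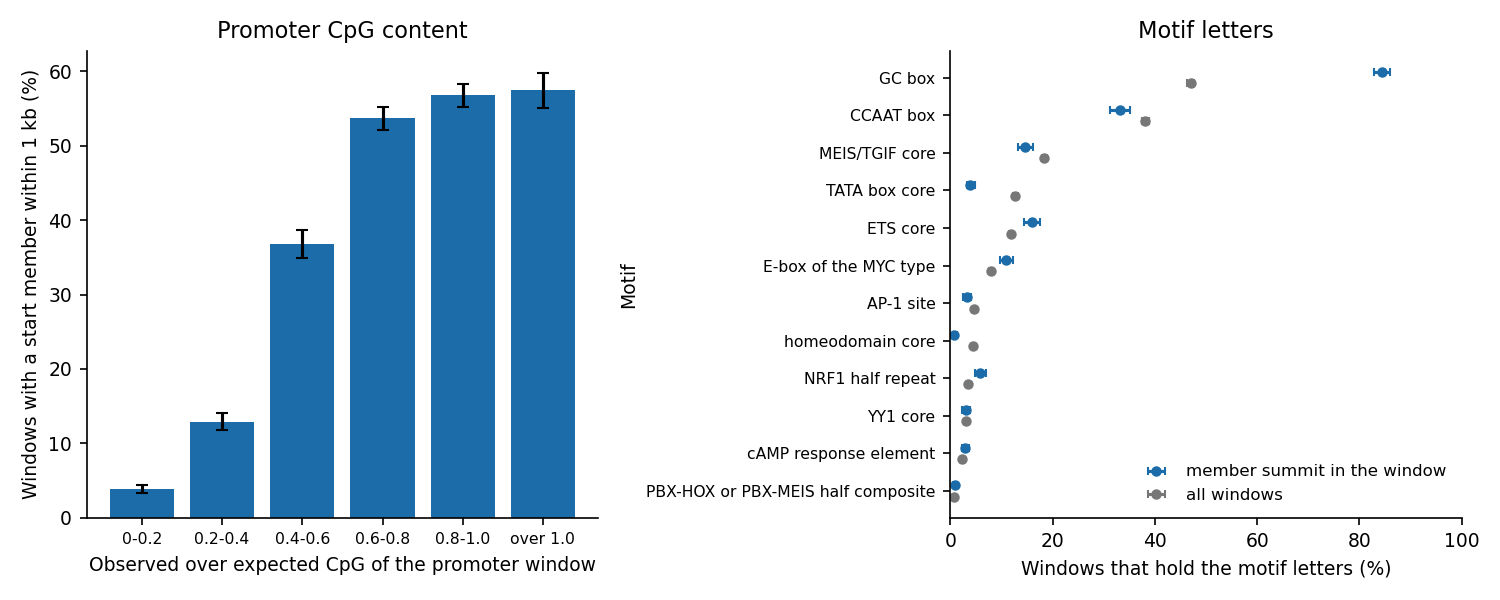
Left, share of RefSeq promoter windows with a start member within 1 kb (%), by the window's observed over expected CpG, as bars with 95% Wilson intervals. Right, share of windows that hold each motif (%), for the 2131 windows with a member summit inside and for all 20085 windows: the GC box stands at 84.5% against 47.0% and the MEIS core at 14.6% against 18.4%.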

How the data were processed

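Each of the 3 libraries, grouped by the labels, has 1 deposited peak table. Per the file headers the peaks were called in each library alone, without a control file, by MACS 2.2.7.1 at a q cutoff of 0.05. MACS2 2.1.4 is named instead in the submitters' processing notes, beside mm10, Bowtie2 2.3.4, Picard and Trimmomatic. As a signal the authors deposited each summit's pileup, which carries no depth scaling. Fold enrichment was deposited as a ratio of pileup to local expectation. The caller's −log10 q-value, deposited beside a −log10 p-value, served for 1 alternative.

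Genes and 300 bp promoter windows came from RefSeq tables of GRCm38.p6. A strand was had for 16457 of 20665 protein-coding genes on chromosomes 1 to 19, and the start was the 5′ end of the gene on that strand. Counts were made in Python 3.11.15 with pandas 2.3.3 and scipy 1.17.1 and checked on simulated peaks. Where several replicate 2 peaks overlapped a member, the one of highest fold enrichment is the partner.

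Named were set LGE genes, the 10 members of highest lower fold enrichment and of highest lower pileup, the 5 widest, the 5 genes with most members in alphabetical order within ties, up to 3 of the strongest genes per list and up to 2 without a peak. The printed MEIS core stretches are the 8 of highest lower fold enrichment, none from chromosome 18. Other list genes, such as further Notch, striatal and glial genes, were named after their values were seen. The members, the lists and the motifs were chosen with earlier results of these data known. The histone list was corrected, and the CpG split, the motif density near summits and the striatal sequences were chosen, after the files were read. Alternatives were other overlap, q, distance, biotype, chromosome and library choices.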

Additional observations from a re-analysis of the deposited data

Results flagged for a closer look

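Chromosomes X and Y stand outside the member rule. They held 327 reproducible MEIS2 peaks at the end of 1 protein-coding gene, against 10 such peaks in the control list, which is why they are given here. Of the 1222 protein-coding genes on X and Y, 298 had such a peak (24.4%, interval 22.1 to 26.9), against 42.2% on chromosomes 1 to 19. Of the peaks with a known strand, 255 were at the start and 23 at the far end. Their median fold enrichments were 7.21 and 6.40.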

How the results depend on the processing

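The number of members stayed within 1.5 times of 9383 in every alternative, and the share of member promoters with the MEIS core stayed within its interval. Members were 21.8% of reproducible peaks with a −log10 q minimum of 5, 17.4% at 500 bp, 24.9% at 2.5 kb, 19.3% with control overlap allowed, 20.3% with X and Y, and 17.9% when genes of any biotype counted. Without either replicate, peaks that met the position rule were 14.7% to 16.9% of all peaks of the remaining library without a control peak. The share of genes with a member was 36.5% with 50% reciprocal overlap, 32.5% with the q minimum, 36.6% at 500 bp, 45.9% at 2.5 kb, 41.2% with X and Y, 36.2% with any biotype and 44.9% to 49.3% without either replicate. The start share was 94.4% with the q minimum, 95.1% at 500 bp, 84.1% at 2.5 kb, 90.5% with any biotype and 86.4% to 88.6% without either replicate. The share called again was 68.1% with reciprocal overlap, 70.7% with the q minimum, 83.3% at 500 bp, 75.3% at 2.5 kb, 91.5% from replicate 2 and 79.6% with any biotype, and has no value without a replicate. With replicate 2 as the base, medians were 6.38 for fold enrichment, 12 tags and 466 bp. Without either replicate they were 6.19 to 7.06, 12 to 17 tags and 438 to 519 bp. The cause of these shifts was not tested. The number of lists above the share of all genes was 12 to 18. Of 230 recomputed list shares, 40 left their interval and 12, in 9 lists, crossed the share of all genes. No paired analysis was possible because the groups share no replicate number. The control is 1 library, and depth is known only as kept tags.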
